A study of Mus musculus with 4 samples.

Results

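Germinal center B cell genes were examined in lymphoma cells of 2 λ-MYC mice, as a list of 10 genes chosen by name: Bcl6, S1pr2, Mybl1, Rgs13, Gcsam, Efnb1, Bach2, Mef2b, Mef2c and Cd38. All 10 were found by symbol among the 34866 genes measured, and 6 of them passed the limit for testing, a level of at least 1 TPM (transcripts per 1000000 transcripts) in at least 2 libraries, as did 11339 genes in all. Both mice carried the same alleles, among them λ-MYC+/TG and R26tdTom+/ki together with a Cre knock-in allele. The λ-MYC transgene is a translocated human MYC gene under the control of regulatory sequences of the lambda light chain, and Cre permanently turns on the fluorescent protein Tomato (Tom), so that Tom marks cells that have expressed Cre at any time. From the spleen of each sick mouse, B220+ IgM+ cells were sorted into Tom+ and Tom- cells and sequenced, which gave 4 libraries: Tom- and Tom+ cells of tumor #1, and Tom- and Tom+ cells of tumor #2. The ages of these 2 mice are not given in the labels. Each tumor is 1 mouse, and each kind of cell was sequenced once per tumor.

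Germinal centers are the sites in lymphoid follicles where activated B cells divide, mutate their antibody genes and are selected for affinity. BCL6 is the transcriptional repressor that defines this program, and MEF2B and MEF2C are factors that help to induce and sustain it, while BACH2 restrains the switch to plasma cells. S1PR2 is a receptor that keeps cells inside the germinal center, RGS13 and GCSAM tune the response to chemokines and antigen, ephrin-B1 (Efnb1) is a surface ligand of germinal center B cells, and A-MYB (Mybl1) is a factor of dividing germinal center B cells. CD38, an ectoenzyme of the cell surface, is high on naive mouse B cells and low on mouse germinal center B cells, so it is the only listed gene expected to be low in them.

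The listed genes covered a wide range of levels in these cells. Mef2c, Bach2 and Cd38 had the highest means, with levels over the 4 libraries of 34.3, 22.6 and 20.6 TPM. Efnb1, Mybl1 and S1pr2 followed, at 3.85, 2.04 and 0.875 TPM. Bcl6, Mef2b, Gcsam and Rgs13 stayed below 1 TPM in every library, and the highest value among these 4 was 0.386 TPM. TPM corrects for transcript length, so levels can be compared between genes, but it keeps no record of read numbers, and the depth of the libraries and the error of such low values are unknown. The order of these means was not separated by the spread over libraries, since the range of Mef2c (17.1 to 53.6 TPM) enclosed that of Bach2 (20.0 to 24.5 TPM) and overlapped that of Cd38 (2.56 to 41.1 TPM), and the ranges of Efnb1, Mybl1 and S1pr2 overlapped as well. In tumor #1 Cd38 (2.56 and 3.02 TPM) was below Efnb1 (5.19 and 4.13 TPM), and the lowest value of S1pr2 (0.142 TPM) was below the highest of Bcl6.

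**Figure D1:**
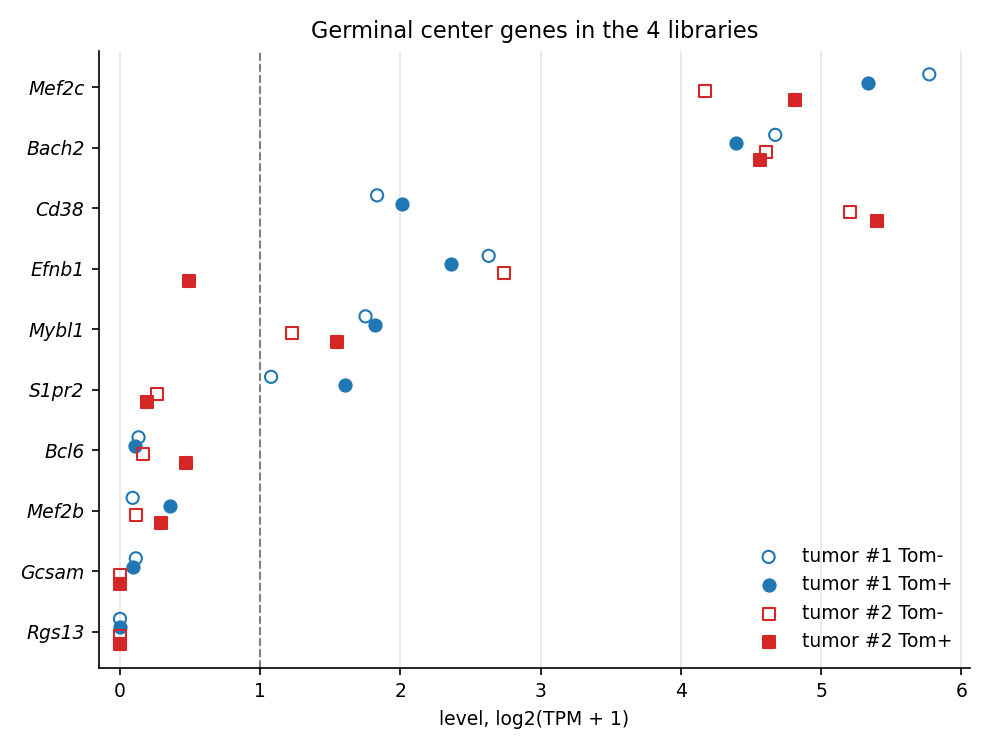
Level of each of the 10 genes as log2(TPM + 1), with 1 symbol per library (circles, tumor #1; squares, tumor #2; open, Tom-; filled, Tom+) and genes ordered by mean TPM. The dashed line stands at 1 TPM. Bcl6, Mef2b, Gcsam and Rgs13 lie left of it in all 4 libraries, and the symbols of Cd38 split by tumor.

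Bcl6 (chromosome 16, 23965052 to 23988852 of GRCm38) was at 0.0960 (Tom-) and 0.0760 TPM (Tom+) in tumor #1 and 0.121 (Tom-) and 0.386 TPM (Tom+) in tumor #2. It exceeded between 42.3% and 49.0% of protein-coding genes. Mef2b (chromosome 8, 70139711 to 70167488) was at 0.0646 (Tom-) and 0.279 TPM (Tom+) in tumor #1 and 0.0812 (Tom-) and 0.227 TPM (Tom+) in tumor #2. Both Tom+ values of Mef2b were above both Tom- values, but all 4 were too low to be tested, and Mef2b shares 62 exonic bases with Borcs8 on the same strand (9.50 to 13.0 TPM), with which it forms an overlapping locus. Gcsam (chromosome 16, 45610380 to 45622867), an adaptor of B cell receptor signaling, was at 0.0813 (Tom-) and 0.0664 TPM (Tom+) in tumor #1 and was listed at 0 in both libraries of tumor #2. Rgs13 (chromosome 1, 144138654 to 144177372), which shortens the signal of G protein-coupled receptors, was listed at 0 in all 4 libraries. No fold change is given for these 4 genes.

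Some of the germinal center transcripts thus reached 1 TPM in every library, and others did not in any. Besides these 4 genes, Fas, a death receptor that marks mouse germinal center B cells, was below 1 TPM in every library, at 0.102 to 0.767 TPM. Nuggc and Serpina9 stayed at 0.143 TPM or less. By contrast, Mef2c and Bach2 were at 17.1 TPM or more throughout. Of 18 other germinal center genes, these 3 among them, 13 were at 1 TPM or more in each library of tumor #1. The count was 14 in each library of tumor #2. Of all 34866 genes measured, 10298 and 10447 were at this level in the libraries of tumor #1, and 11357 in each of tumor #2. A level of 1 TPM does not by itself show a germinal center state. All 10 markers of the B lineage, among them Cd79a, Cd79b, Ms4a1, Ptprc, Pax5, Ebf1, Cd22, Blk and Ighm, were at 1 TPM or more in all 4 libraries. These markers do not show how well Tom+ and Tom- cells were separated, which was not tested. Germinal center reactions also contain follicular helper T cells, which use BCL6 themselves, and of their markers Icos, Pdcd1 and Cd40lg were listed at 0 in every library, with Il21 and Sh2d1a at 0.369 TPM or less.

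The study's design compares Tom+ with Tom- cells of the same tumor, which asks whether cells with a history of Cre expression differ from their neighbors without one. Differences are given as Tom+ minus Tom- on the log2(TPM + 1) scale, which understates changes of low genes, and were tested with limma with the tumor as a block. For none of the 6 genes above the limit did the difference pass the test, with adjusted p-values from limma between 0.936 and 0.987. Neither did any of the 11339 genes tested (0%), while 530 of them (4.67%), and 0 of the 6, had an unadjusted p-value below 0.05. Of the 6, Mybl1 and Cd38 were higher in the Tom+ cells of each tumor, as were 21.6% of all genes tested. Efnb1 and Bach2 were lower in both (Bach2 in tumor #2 not when TPM was rescaled over protein-coding genes), as were 29.5% of all genes, and the tumors went in opposite directions for S1pr2 and Mef2c, as for 48.8% of all genes. The median difference over the 6 genes was 0.14, against -0.033 over all genes tested. It was -0.10 in tumor #1 and 0.073 in tumor #2, so that its sign depended on the tumor. In sorted bulk samples, fewer cells that express a gene and less RNA per cell cannot be told apart.

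Efnb1 (chromosome X, 99136130 to 99148991) had the widest difference. Its level was 5.19 TPM in Tom- and 4.13 TPM in Tom+ cells of tumor #1, and 5.67 TPM in Tom- but 0.404 TPM in Tom+ cells of tumor #2. The 2 Tom+ libraries were thus both below the 2 Tom- libraries, a pattern shown by 2 of the 6 genes and 9.86% of all genes tested (the reverse was shown by 0 of the 6 and 6.42% of all genes), and the Tom+ library of tumor #2 stood alone with a level below 1 TPM. The mean difference was -1.26 (SE 0.59, 95% interval -3.08 to 0.56, adjusted p = 0.936 from limma), and its absolute size exceeded that of 97.2% of all genes tested. The difference rested on tumor #2, with -0.27 in tumor #1 and -2.25 in tumor #2. Of 8 myeloid markers, S100a8, S100a9, Itgam and Lyz2 were between 1.41 and 3.0 TPM in Tom- cells of tumor #2. In its Tom+ cells they were at 0.310 TPM or less. The rest were at 0.115 TPM or less in both, with Adgre1 level (0.110 TPM in Tom- and 0.115 TPM in Tom+ cells). Of the 8, 0 passed the limit for testing. Over the 8 myeloid markers the summed level was 8.77 TPM in Tom- cells of tumor #2 and between 0.634 and 0.801 TPM in the other 3 libraries, and Cd14 was at 0 throughout. Of the plasma cell markers, Jchain was at 1.24 TPM in Tom- and 209 TPM in Tom+ cells of that tumor, while the other markers of the list summed to 60.4 and 57.4 TPM. Slamf7 made most of that sum and was lower in Tom+ cells (38.7 and 31.8 TPM). The rest were higher in Tom+ cells: Xbp1 (18.7 and 21.2 TPM), Derl3 (2.80 and 2.93), Prdm1 (0.105 and 0.570), Sdc1 (0 and 0.428) and Tnfrsf17 (0 and 0.390). The T cell markers summed to 21.1 TPM in Tom- and 19.1 TPM in Tom+ cells of tumor #2. Of those that reached 1 TPM there, Cd3d was lower in Tom+ cells (7.77 and 2.09 TPM). Cd3g (0.104 and 1.35 TPM), Thy1 (2.18 and 3.63 TPM) and Lck (10.6 and 11.5 TPM) were higher. The part of these markers in the Efnb1 difference was not tested.

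Bach2 (chromosome 4, 32238804 to 32586108) was the steadiest of the expressed genes. It was at 24.5 (Tom-) and 20.0 TPM (Tom+) in tumor #1 and 23.4 (Tom-) and 22.7 TPM (Tom+) in tumor #2, and its highest value was only 1.22 times its lowest. Both Tom+ values were below both Tom- values, by a mean difference of -0.16 (SE 0.17, 95% interval -0.68 to 0.36, adjusted p = 0.938 from limma). The part from tumor #2, -0.043, turned to 0.056 when TPM was rescaled over protein-coding genes only. Of the 10 B lineage markers, 8 were likewise lower in Tom+ than in Tom- cells within each tumor, against 29.5% of all genes tested. Their median difference was -0.27, against -0.033 over all genes, and their part in the result was not tested. Bach2 shares 537 exonic bases with the antisense gene Bach2os, which is not used here, and whether the libraries keep the strand is not stated.

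Cd38 (chromosome 5, 43868553 to 43912375) was at 2.56 (Tom-) and 3.02 TPM (Tom+) in tumor #1 and 35.9 (Tom-) and 41.1 TPM (Tom+) in tumor #2. The difference between Tom+ and Tom- cells was small and nearly the same in the tumors, 0.17 and 0.19, with a mean of 0.18 (SE 0.18, 95% interval -0.36 to 0.72, adjusted p = 0.936 from limma). Mybl1 (chromosome 1, 9667415 to 9700209) was at 2.37 (Tom-) and 2.53 TPM (Tom+) in tumor #1 and 1.35 (Tom-) and 1.92 TPM (Tom+) in tumor #2, and its mean difference was 0.19 (SE 0.24, adjusted p = 0.947 from limma). Both genes were higher in Tom+ cells within each tumor, the Tom+ and Tom- values overlapped across tumors, and no difference in either gene passed the test.

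Mef2c (chromosome 13, 83504034 to 83667080), a factor activated by B cell receptor signaling, was at 53.6 (Tom-) and 39.3 TPM (Tom+) in tumor #1 and 17.1 (Tom-) and 27.2 TPM (Tom+) in tumor #2. Tom+ cells were lower in the first tumor (-0.44) and higher in the second (0.64), and the mean difference was 0.10 (SE 0.34, adjusted p = 0.987 from limma). S1pr2 (chromosome 9, 20962361 to 20976781) was at 1.11 (Tom-) and 2.05 TPM (Tom+) in tumor #1 and 0.201 (Tom-) and 0.142 TPM (Tom+) in tumor #2. Its difference was 0.53 in tumor #1, -0.072 in tumor #2 and 0.23 on average (SE 0.30, adjusted p = 0.948 from limma). For both genes the Tom+ and Tom- values overlapped, and on average the tumors were further apart than the kinds of cells. For Mef2c the opposite signs made the mean difference between the kinds of cells small. The difference between the tumors in its Tom+ cells (-0.52) was smaller in size than the 0.64 between Tom+ and Tom- cells of tumor #2.

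**Figure D2:**
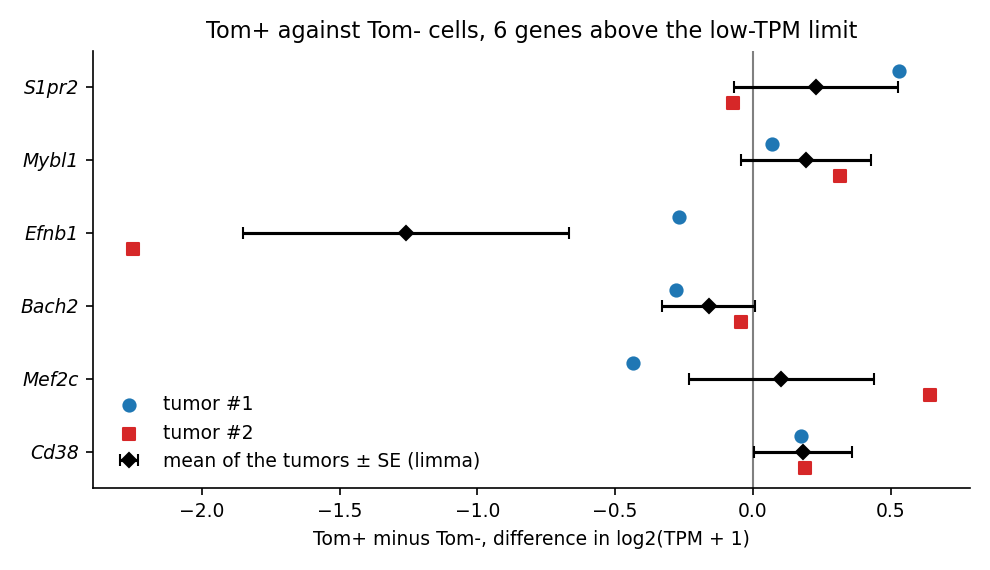
Difference between Tom+ and Tom- cells in log2(TPM + 1) for the 6 genes above the limit for testing, with tumor #1 (circles), tumor #2 (squares) and their mean with limma's SE (diamonds and bars, n = 2 tumors). Efnb1 is the only gene with a mean below -1, and tumor #2 lies at -2.25.

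The tumors were also compared with each other. The mean difference between them was larger in size than that between Tom+ and Tom- cells for Cd38, S1pr2, Mef2c and Mybl1, and smaller for Efnb1 and Bach2. For Bach2 this order reversed with trimmed-mean scaling (-0.28 against -0.16), quantile normalization (-0.19 against -0.13) and over protein-coding genes only (0.14 against -0.11). For Efnb1 it reversed with quantile normalization (-1.26 against -1.21). The 2 libraries of a tumor come from 1 mouse and are no replicates of a tumor, so the differences between the tumors are descriptions without a test. They are given as tumor #2 minus tumor #1, on the log2(TPM + 1) scale and averaged over Tom- and Tom+ cells, and a gene was counted when its difference was at least 1 and its libraries did not overlap between the tumors. Of the 6 genes, 1 was counted as higher in tumor #2, Cd38, and 2 as lower, S1pr2 and Mef2c, against 16.2% and 5.1% of all genes tested (3 of 6 in all, against 21.3%). S1pr2 reached 1 TPM in tumor #1 only, so it passed the limit for testing through the tumor in which it was higher, and its count was favored by that limit. This background leans to tumor #2, with a median over all genes of 0.20 (-0.097 with trimmed-mean scaling, -0.082 with quantile normalization and 0.31 over protein-coding genes only), and 76.05% of the counted genes were higher there, a share that came to 54.7% with trimmed-mean scaling, 53.6% with quantile normalization and 82.9% over protein-coding genes only. Cd38 and S1pr2 were counted under each of these scalings, and Mef2c was not counted over protein-coding genes only.

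Cd38 differed the most, by 3.38, or 13.8 times in mean TPM, and the difference was 3.37 in Tom- and 3.39 in Tom+ cells. Its absolute size exceeded that of 98.5% of all genes tested. S1pr2 went the other way, by -1.11, from a mean level 9.19 times higher in tumor #1, although at most 2.05 TPM. Mef2c differed by -1.06, with -1.60 in Tom- and -0.52 in Tom+ cells, and was 2.10 times higher in tumor #1 in mean TPM. In tumor #1 Cd38 was thus lower and S1pr2 and Mef2c were higher. The count of S1pr2 was favored by the limit for testing, and that of Mef2c depended on the scaling. Bcl6, Rgs13, Gcsam and Mef2b were below 1 TPM in tumor #1 as well.

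The other 3 genes were not past the limit. Efnb1 was level between the tumors in Tom- cells (0.11) and lower in tumor #2 in Tom+ cells (-1.87). Mybl1 differed by -0.40, and Bach2 by 0.054, a sign that turned to -0.28 with trimmed-mean scaling and to -0.19 with quantile normalization. Several other features of the libraries moved with the tumors. Mitochondrial genes took 6.61% to 8.67% of TPM in tumor #1 and 14.4% to 15.6% in tumor #2, the summed level of the 10 B lineage markers was 2321 to 2488 TPM in tumor #1 and 5225 to 6056 TPM in tumor #2, with 8 of the 10 counted as higher (16.2% of all genes), and the 6 erythroid markers summed to 17.6 to 21.5 TPM in tumor #1 and 0.619 to 0.967 TPM in tumor #2, with Hba-a1 and Hba-a2 at 0 throughout. Markers of naive follicular B cells summed to 108 to 115 TPM in tumor #1 and 323 to 343 TPM in tumor #2, those of B cell precursors to 76.8 to 90.1 and 174 to 270 TPM (Igll1 and Kit at 0), those of T cells to 5.30 to 8.03 and 19.1 to 21.1 TPM (Trbc2 at 0), and those of stromal and endothelial cells, mostly Pecam1, to 15.1 and 44.3 to 50.4 TPM (Col3a1 at 0). Vpreb3 made most of the precursor sum, at 46.7 to 62.8 TPM in tumor #1 and 148 to 242 TPM in tumor #2. Il7r went the other way, at 13.5 to 14.1 and 4.39 to 9.43 TPM. Lck was the largest T cell marker in each library, at 4.25 to 7.21 and 10.6 to 11.5 TPM. Cd3d was at 0.329 (Tom-) and 0.0513 TPM (Tom+) in tumor #1 and 7.77 (Tom-) and 2.09 TPM (Tom+) in tumor #2. Thy1 was at 0.418 and 0.648 TPM and at 2.18 and 3.63 TPM. Both passed the limit for testing through tumor #2 only. Cd3g reached 1.35 TPM in Tom+ cells of tumor #2, and Cd3e, Cd4 and Cd8a stayed at 0.445 TPM or less. NK cell markers stayed at a sum of 0.592 TPM or less. Their part in these differences was not tested.

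**Figure D3:**
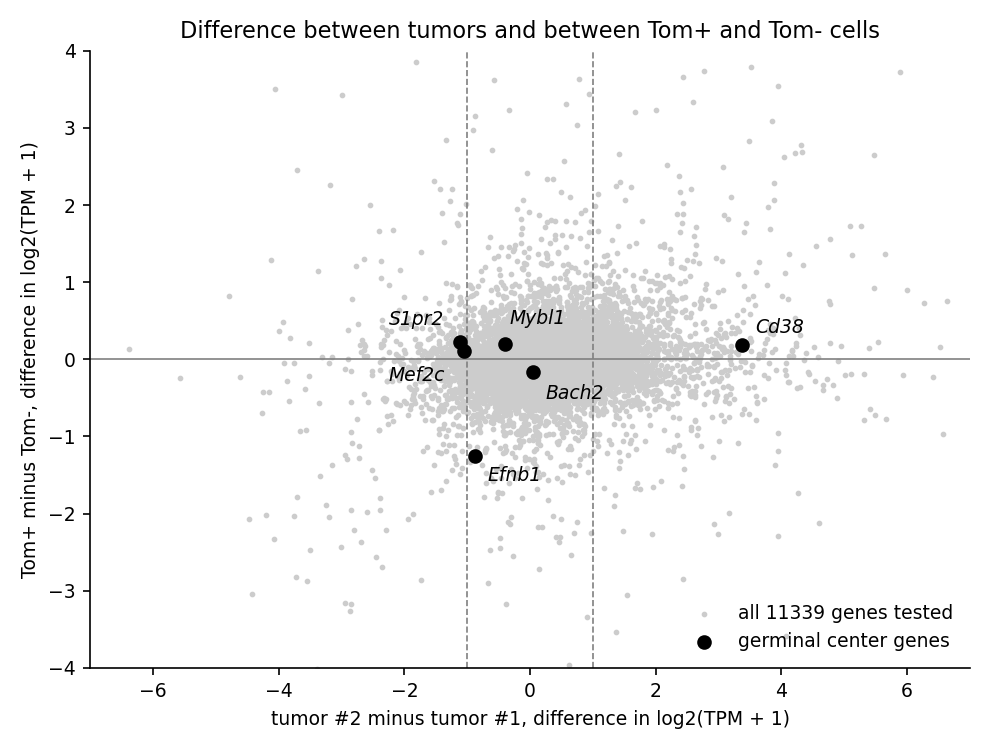
Each gene's difference between the tumors (horizontal, tumor #2 minus tumor #1) against its difference between Tom+ and Tom- cells (vertical), both in log2(TPM + 1), for the 11339 genes tested (gray, with 26 outside the axes) and the 6 germinal center genes (black). Dashed lines mark differences of 1 between the tumors. Cd38 stands apart to the right at 3.38 and Efnb1 stands apart downward at -1.26.

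Relatives and partners of the listed genes were measured in the same libraries. Among MEF2 factors, which bind the same DNA sequence and are held inactive by class IIa histone deacetylases, Mef2c was not the most abundant in every library. Mef2d was at 31.4 (Tom-) and 30.6 TPM (Tom+) in tumor #1 and 74.5 (Tom-) and 69.7 TPM (Tom+) in tumor #2, and differed between the tumors by 1.19, opposite in sign to Mef2c. In tumor #1 Mef2c was the higher of the pair and in tumor #2 Mef2d was, in both kinds of cells. Mef2a ranged from 10.4 to 15.5 TPM. The repressive partners Hdac7 and Hdac9 had mean differences of -0.17 (SE 0.16, adjusted p = 0.936 from limma) and -0.26 (SE 0.21, adjusted p = 0.936) between Tom+ and Tom- cells. Of the 6 genes of this group, 3 were lower and 0 higher in the Tom+ cells of each tumor. Over all genes tested these shares were 29.5% and 21.6%. Of the 6, 0 passed the test.

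The MYB family showed where A-MYB stood. Mybl1, at 1.35 to 2.53 TPM, was below both relatives in each library. Myb, a factor of early B cells, was lowest in the Tom- library of tumor #1 (38.4 TPM) and highest in that of tumor #2 (108 TPM), and differed between the tumors by 0.78. Mybl2, a factor of dividing cells in general, was at 40.5 (Tom-) and 41.8 TPM (Tom+) in tumor #1 and 20.0 (Tom-) and 16.7 TPM (Tom+) in tumor #2, a difference of -1.13. Neither relative differed in the same direction between Tom+ and Tom- cells of both tumors.

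Among the receptors for sphingosine-1-phosphate, S1pr1, which draws lymphocytes out of the tissue and opposes S1pr2, was the highest in all 4 libraries. It was at 11.2 (Tom-) and 12.1 TPM (Tom+) in tumor #1 and 36.6 (Tom-) and 42.8 TPM (Tom+) in tumor #2. The receptors ran in opposite directions between the tumors, S1pr1 by 1.68 and S1pr2 by -1.11. S1pr2 was at most 2.05 TPM and passed the limit for testing through tumor #1 only, so its side of this contrast was favored by that limit. S1pr4 ranged from 4.30 to 7.42 TPM, and S1pr3 and S1pr5 stayed at 0.151 TPM or less. Gna13 and Arhgef1, which pass on the signal of S1PR2, were expressed in all libraries, at 15.2 to 18.1 and 33.7 to 76.9 TPM. Of the 7 tested genes of this pathway, 2 were higher and 0 lower in the Tom+ cells of each tumor. Over all genes tested these shares were 21.6% and 29.5%. The 2 were S1pr1 (mean difference 0.16, adjusted p = 0.936 from limma) and Sphk2 (0.25, adjusted p = 0.936), and 0 of the 7 passed the test.

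**Figure D4:**
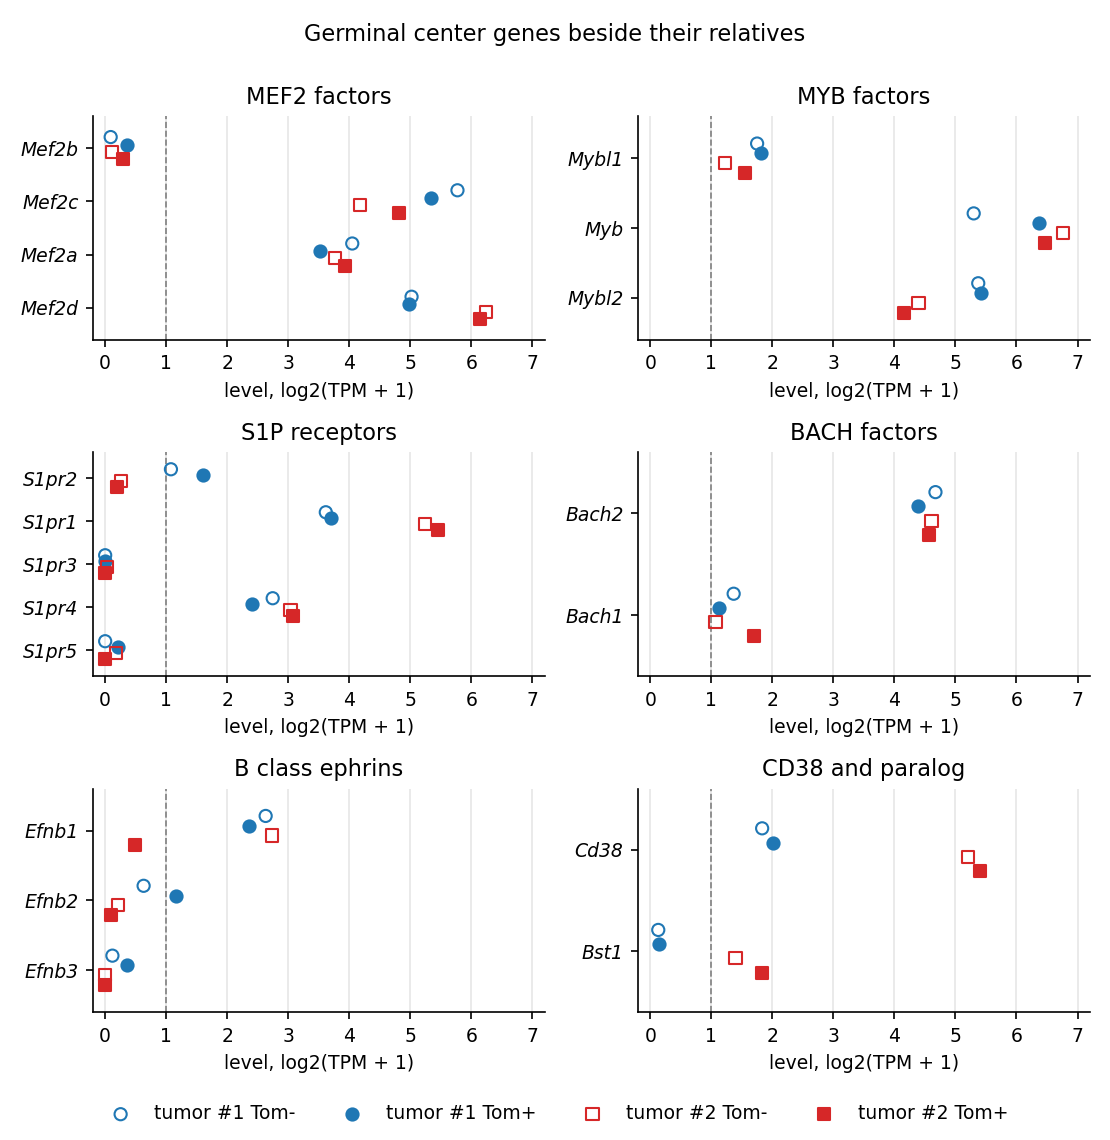
Level as log2(TPM + 1) of listed genes and their relatives in 6 panels, with 1 symbol per library as in the key and a dashed line at 1 TPM. In tumor #1 (circles) Mef2c lies above Mef2d and in tumor #2 (squares) below it, S1pr1 exceeds S1pr2 in every library, and Cd38 and its paralog Bst1 both lie further right in tumor #2.

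Bst1, the paralog of Cd38 with a similar enzymatic activity, was at 0.0955 (Tom-) and 0.103 TPM (Tom+) in tumor #1 and 1.63 (Tom-) and 2.54 TPM (Tom+) in tumor #2, and differed between the tumors by 1.47 in the same direction as Cd38, although it passed the limit for testing through tumor #2 only. Among the ephrins of class B, Efnb1 was the only one that passed the limit for testing, while Efnb2 reached 1.23 TPM in Tom+ cells of tumor #1 only and 0 of the 5 Eph receptors on the list passed. Bach1, the relative of Bach2, was at 1.10 to 2.24 TPM. Of the small Maf proteins with which BACH factors pair, Mafk had a mean difference of -0.15 between Tom+ and Tom- cells (-0.29 in tumor #1 and nearly level in tumor #2, adjusted p = 0.952 from limma), and Mafg was higher in tumor #2 by 1.12.

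Rgs13 was at 0, and so was Rgs18, and Rgs1, another regulator of chemokine receptor signaling in B cells, was at 0.155 TPM or less. The RGS genes above the limit included Rgs2, at 20.3 (Tom-) and 36.02 TPM (Tom+) in tumor #1 and 10.1 (Tom-) and 10.9 TPM (Tom+) in tumor #2, a difference between the tumors of -1.29. Of the 5 RGS genes tested, 4 were higher and 0 lower in the Tom+ cells of each tumor, against 21.6% and 29.5% of all genes. The largest mean differences were those of Rgs10 (0.58, SE 0.25, adjusted p = 0.936 from limma) and Rgs12 (0.53, SE 0.28, adjusted p = 0.936), and 0 of the 5 passed the test. The kinases and the adaptor with which GCSAM works were all expressed, with Syk at 38.1 to 62.7, Lyn at 27.6 to 48.1 and Grb2 at 63.6 to 95.2 TPM. All 3 were lower in the Tom+ cells of each tumor, against 29.5% of all genes tested. Grb2, which had an unadjusted p-value of 0.0421, differed by -0.42 in tumor #1 and -0.43 in tumor #2 (SE 0.13, adjusted p = 0.936 from limma).

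Of 16 genes that BCL6 is known to repress, some of which also stand on the other lists, 13 were tested. Of these, 5 were higher and 4 lower in the Tom+ cells of each tumor, against 21.6% and 29.5% of all genes tested. Of the 13, 0 passed the test. The largest differences shared by the tumors were those of Gpr183, a receptor that guides B cells away from the follicle center, at 0.0508 (Tom-) and 1.21 TPM (Tom+) in tumor #1 and 0.352 (Tom-) and 1.16 TPM (Tom+) in tumor #2 (mean difference 0.88, SE 0.27, adjusted p = 0.936 from limma), which passed the limit for testing through the Tom+ libraries only, and of Atr, a kinase of the DNA damage response (0.67, SE 0.17, adjusted p = 0.936). Between the tumors 8 of the 13 were counted as higher and 0 as lower in tumor #2, against 16.2% and 5.1% of all genes. Of these 8, Bcl2, Ccnd2, Ccr6, Cd69 and Cd80 were below 1 TPM in both libraries of tumor #1 and passed the limit through tumor #2 only, so the count of 8 was favored by that limit. Ccnd2, a cyclin, differed by 3.40, from 0.249 and 0.134 TPM in tumor #1 to 17.7 and 7.43 TPM in tumor #2, and Bcl2, which protects from cell death, by 2.32, from 0.519 and 0.368 to 5.55 and 6.95 TPM. Bcl6 itself was below 0.4 TPM in both tumors. Its corepressors were expressed in all 4 libraries. Of the 6 tested, 1 was higher and 2 lower in the Tom+ cells of each tumor, against 21.6% and 29.5% of all genes. The lower ones were Ctbp1 (-0.25, SE 0.13, adjusted p = 0.936 from limma) and Bcor (-0.22, SE 0.20, adjusted p = 0.936).

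A broader list of 18 other germinal center genes had 14 tested members, of which 0 passed the test. In the Tom+ cells of each tumor 2 were higher and 6 lower, against 21.6% and 29.5% of all genes tested. Spib and Irf8, transcription factors of germinal center and other mature B cells, had the largest shared differences. Irf8 was at 25.2 (Tom-) and 18.9 TPM (Tom+) in tumor #1 and 71.6 (Tom-) and 45.5 TPM (Tom+) in tumor #2 (mean difference -0.52, SE 0.16, adjusted p = 0.936 from limma). Spib was at 51.2 and 36.2 TPM and at 88.0 and 65.2 TPM (-0.46, SE 0.14, adjusted p = 0.936). In both genes the Tom+ level was lower within each tumor, and the Tom+ and Tom- libraries overlapped across tumors. Between the tumors 3 of the 14 were counted as higher in tumor #2 and 0 as lower, a share near the 16.2% of all genes. Il21r (1.96, with 1 TPM reached in tumor #2 only) and Pou2f2 (1.93) differed the most.

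Genes of the light zone, where germinal center B cells are selected, had 10 of 14 tested, with 3 higher and 2 lower in the Tom+ cells of each tumor. Irf4 (mean difference 0.57, SE 0.27, adjusted p = 0.936 from limma) and Cd40 (-0.45, SE 0.20, adjusted p = 0.936) differed the most. Genes of the dark zone, where they divide, had all 10 tested, with 4 higher and 2 lower. Over all genes tested, 21.6% were higher and 29.5% lower in the Tom+ cells of both tumors. Ccnd3, a cyclin of dark zone B cells, was at 33.1 (Tom-) and 47.4 TPM (Tom+) in tumor #1 and 42.3 (Tom-) and 66.7 TPM (Tom+) in tumor #2 (0.58, SE 0.14, unadjusted p = 0.0248 and adjusted p = 0.936 from limma), and Ccnb1, a mitotic cyclin, had a mean difference of -0.28. In both lists 0 genes passed the test. Between the tumors, 4 of 10 light zone genes were counted as higher and 0 as lower in tumor #2, with Il4i1 (2.46, with 1 TPM reached in tumor #2 only) and Cd40 (1.94) differing the most, and 0 of 10 dark zone genes as higher and 1 as lower, Ccnb1 (-1.72), with Ccnb2 next (-0.95). Over all genes 16.2% were counted as higher and 5.1% as lower, and the share of lower dark zone genes was near that background. The median difference was 0.79 for the light zone and -0.34 for the dark zone, against 0.20 over all genes. Whether these lists differ from other genes was not tested.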

How the data were processed

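Splenic B220+ IgM+ Tom+ and Tom- cells of 2 λ-MYC mice were profiled by RNA-seq with a NEBNext kit, 4 libraries in all. The authors trimmed adaptors with Cutadapt and quantified single reads with Salmon (version 1.9 in the processing notes) against GRCm38 transcripts. The deposited values are TPM per gene in 1 table, and each library sums to 1000000. TPM holds no read numbers, so depth is unknown, no counting interval is given, and the edgeR test of the authors, which needs counts, was not run. Some genes are not reported here. How transcripts were summed to genes is not described. Symbols and positions came from GENCODE M21, which holds 34582 of the 34866 identifiers.

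Values were analyzed as log2(TPM + 1) for genes with at least 1 TPM in at least 2 libraries. Tom+ and Tom- cells were compared with limma 3.58.1 in R 4.3.3, with the tumor as a block (the libraries of a tumor come from 1 mouse, and their deviations from the group means correlated across genes, Pearson's r = 0.626) and an intensity trend in the prior (2.21 prior degrees of freedom and 1 residual). P-values were adjusted by Benjamini-Hochberg over all genes tested, with a threshold of 0.05. The method was tested on simulated data with planted differences larger than those of the listed genes and less noise than most of them had. That run does not show which differences 2 pairs of libraries could detect here. An exact permutation test of 2 pairs cannot give a p-value below 0.5. Tumors were compared without a test.

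The listed genes and the lists of relatives, partners and markers were chosen with earlier results of these data known. Named were the 10 listed genes and, per list, the genes past an adjusted p-value of 0.05, the 2 with the largest difference of the same sign in both tumors and the 2 with the largest difference between the tumors. The relatives and cell type markers given beside a result, and Fas, Nuggc and Serpina9, were named outside this rule, after their values were seen. As alternatives, the tumor block was dropped, the pseudocount set to 0.1 or 0.5, and the filter removed or raised to a mean of 5 TPM. The others were trimmed-mean scaling, quantile normalization, TPM rescaled over protein-coding genes without immunoglobulin and mitochondrial genes, no trend, a robust prior and each tumor left out. Tables and plots used Python 3.11.15, pandas 2.3.3, numpy 2.4.6 and matplotlib 3.10.9.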

Additional observations from a re-analysis of the deposited data

Results flagged for a closer look

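Mef2c and S1pr2 were marked because the difference between Tom+ and Tom- cells had opposite signs in the tumors. Mef2c was at -0.44 in tumor #1 and 0.64 in tumor #2, and S1pr2 at 0.53 in tumor #1 and -0.072 in tumor #2, on the log2(TPM + 1) scale. With 1 pair of libraries per tumor, the difference between the tumors in this respect was not tested. Opposite signs were found for 48.8% of all genes tested.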

How the results depend on the processing

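Under each alternative with a test, 0 listed genes differed between Tom+ and Tom- cells, either at an adjusted or at an unadjusted p-value below 0.05, and the sign of each mean difference was kept. Without the tumor block, 0 of 6 had an unadjusted p-value below 0.05 (smallest 0.163), the smallest adjusted p-value was 1, and the unadjusted count over all genes went from 530 to 140. Leaving out a tumor gives a value with no test. The median difference of the 6 genes was -0.10 with tumor #1 alone and 0.073 with tumor #2 alone, that of S1pr2 ranged from -0.072 to 0.53 and that of Mef2c from -0.44 to 0.64. Between the tumors, the number of genes counted was 3 of 6, 2 over protein-coding genes only (without Mef2c), 4 with quantile normalization (with Efnb1), and 2 of 3 at a mean of at least 5 TPM. The difference of S1pr2 was -2.58 with a pseudocount of 0.1 and that of Cd38 lay between 3.02 and 3.74. Among genes that moved the same way in both tumors, 42.3% were higher in Tom+ cells, and 53.7% over protein-coding genes only. Unknown depth limits the values below 1 TPM.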
